A study of Mus musculus with 2 samples.

Results

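The semaphorins and their plexin receptors, and the ephrins and their Eph receptors, were followed in RUNX2 CUT&Tag of MC3T3-E1, a clonal line of mouse embryonic osteoblast precursors. The genes were chosen by symbol, with earlier results of these data known, and membership used no measured value. They were every protein-coding RefSeq gene on chromosomes 1 to 19 whose symbol begins with Sema, Plxn, Efna, Efnb, Epha or Ephb. This gave 48 of 20665 protein-coding genes, namely 20 semaphorins, 7 plexins, 7 ephrins and 14 Eph receptors. The series holds a single group of 2 untreated replicate libraries made with an antibody against RUNX2, the Runt-family factor needed for osteoblast formation. It has no control antibody, no input and no second condition, and separate cultures are not stated for the replicates, so differences between them may be technical. The lists hold 26853 peaks for replicate 1 and 27287 for replicate 2, as positions and widths without heights or read numbers. Without a control, peaks of RUNX2 and peaks of background cutting cannot be told apart. Read depth is unknown, RNA was not measured, and the identity of the cells could not be checked against marker expression.

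Semaphorins are secreted or membrane-bound proteins that steer growing axons and migrating cells. Most signal through plexins, whose cytoplasmic part acts on small GTPases, and most class 3 semaphorins also need a neuropilin as coreceptor. Ephrins are bound to the cell surface, by a lipid anchor in the A class and by a transmembrane segment in the B class, and Eph receptors are receptor tyrosine kinases that meet them on neighbouring cells, with signals running in both directions. In bone, Sema3a made by osteoblasts restrains osteoclast formation, Sema4d made by osteoclasts acts on osteoblasts through Plxnb1, and ephrin-B2 on osteoclasts and EphB4 on osteoblasts form a contact signal between these cells.

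A peak was linked to a gene when it overlapped the gene span or the 10 kb beyond either end, and overlapping peaks of the replicates (1 bp or more) were joined into a shared region. Such a link gives position only. Of the 48 genes, 31 had at least 1 shared region (64.6%, 95% Wilson interval 50.4 to 76.6), against 54.8% of all protein-coding genes. The interval held that value. Together they had 51 shared regions, with a median of 1 per gene in this family and a median of 1 among all protein-coding genes. Sema3a had the most, with 5 regions, and Plxna2, Epha2, Epha4, Ephb2 and Sema3b had 3 each. Those 6 genes made up 12.5% of the 48 (5.86 to 24.7), against 7.71% of all protein-coding genes with 3 or more regions. Sema3a, Plxna2, Epha4 and Ephb2 have spans of 100 kb or more, and this share was not compared by gene length. Intervals here and below cover counting error only and treat genes as independent.

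**Figure D1:**
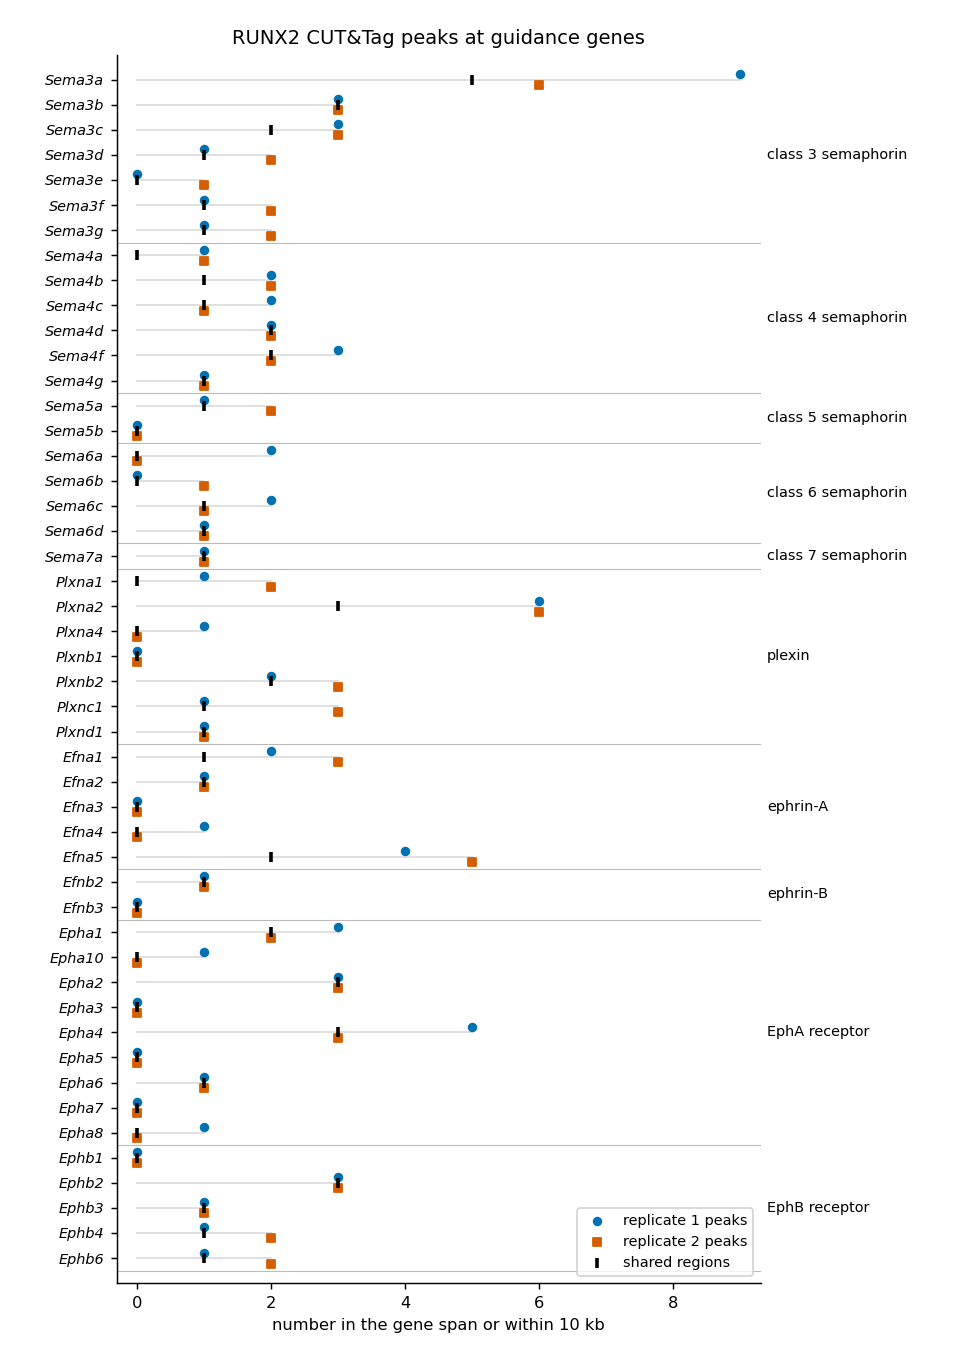
Number of RUNX2 CUT&Tag peaks in the gene span or within 10 kb, for each of the 48 genes ordered by class; circles are replicate 1, squares are replicate 2 and vertical marks are shared regions. Sema3a stands farthest to the right, with 9 peaks in replicate 1, 6 in replicate 2 and 5 shared regions, and 8 genes have no peak in either list.

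The promoter table used for sequence, from RefSeq on GRCm38.p6, lists 56 transcription starts for 42 of the 48 genes; Efnb3, Plxna1, Plxna4, Sema3b, Sema3f and Sema6a have no entry. A shared region lay within 1 kb of a listed start in 10 of these 42 genes (23.8%, 13.5 to 38.5), against 36.4% of the protein-coding genes in the table. The 10 genes were the ephrin gene Efnb2, the Eph receptor genes Epha2, Ephb3, Ephb4 and Ephb6, the plexin genes Plxna2, Plxnb2 and Plxnd1, and the semaphorin genes Sema5a and Sema6c. In 9 of them the region reached into the window from 250 bases before to 50 bases after the start, and in Plxna2 it stopped 410 bp before the start. The 250 bases before the start are printed 5′ to 3′ for 6 of the 9, at least 1 for each class of molecule that had one, with capitals for the bases covered by the peaks of both replicates.
Efnb2: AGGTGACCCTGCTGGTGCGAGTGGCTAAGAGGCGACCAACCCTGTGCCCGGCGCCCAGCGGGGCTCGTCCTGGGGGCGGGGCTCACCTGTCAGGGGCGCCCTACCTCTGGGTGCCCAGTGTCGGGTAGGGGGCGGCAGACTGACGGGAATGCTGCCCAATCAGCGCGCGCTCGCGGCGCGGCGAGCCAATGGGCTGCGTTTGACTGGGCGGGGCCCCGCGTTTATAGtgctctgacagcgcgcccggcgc
Ephb4: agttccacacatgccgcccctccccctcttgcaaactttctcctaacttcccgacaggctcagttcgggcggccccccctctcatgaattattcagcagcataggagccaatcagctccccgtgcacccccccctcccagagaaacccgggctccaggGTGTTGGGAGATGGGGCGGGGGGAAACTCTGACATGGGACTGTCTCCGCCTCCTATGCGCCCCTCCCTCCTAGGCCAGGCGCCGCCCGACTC
Epha2: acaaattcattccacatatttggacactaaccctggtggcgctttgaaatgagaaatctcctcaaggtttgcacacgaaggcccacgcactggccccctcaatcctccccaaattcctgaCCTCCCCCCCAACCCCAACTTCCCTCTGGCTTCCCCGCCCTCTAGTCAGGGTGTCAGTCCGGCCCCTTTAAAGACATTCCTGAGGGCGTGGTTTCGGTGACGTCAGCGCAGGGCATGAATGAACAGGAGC
Plxnd1: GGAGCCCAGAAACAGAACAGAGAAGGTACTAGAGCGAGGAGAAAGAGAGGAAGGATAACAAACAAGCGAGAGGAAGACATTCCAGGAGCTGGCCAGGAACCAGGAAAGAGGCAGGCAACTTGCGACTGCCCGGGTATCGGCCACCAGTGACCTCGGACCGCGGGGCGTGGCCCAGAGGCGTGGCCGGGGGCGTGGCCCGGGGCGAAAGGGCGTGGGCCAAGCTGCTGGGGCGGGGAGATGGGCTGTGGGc
Plxnb2: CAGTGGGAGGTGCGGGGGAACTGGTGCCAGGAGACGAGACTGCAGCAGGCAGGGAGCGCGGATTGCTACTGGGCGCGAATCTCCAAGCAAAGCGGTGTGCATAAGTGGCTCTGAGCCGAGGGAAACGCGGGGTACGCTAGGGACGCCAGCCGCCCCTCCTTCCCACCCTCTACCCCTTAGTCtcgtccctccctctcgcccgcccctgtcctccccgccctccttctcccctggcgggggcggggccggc
Sema6c: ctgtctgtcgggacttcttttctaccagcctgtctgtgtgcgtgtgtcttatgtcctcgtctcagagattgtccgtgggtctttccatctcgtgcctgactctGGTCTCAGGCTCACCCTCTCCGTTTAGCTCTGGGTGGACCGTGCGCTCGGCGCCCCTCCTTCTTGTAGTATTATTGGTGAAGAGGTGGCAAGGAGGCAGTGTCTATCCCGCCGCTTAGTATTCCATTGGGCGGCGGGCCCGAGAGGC
These stretches lie at chr8:8661243-8661492 (minus strand) for Efnb2, chr5:137349859-137350108 (plus strand) for Ephb4, chr4:141300971-141301220 (plus strand) for Epha2, chr6:115995006-115995255 (minus strand) for Plxnd1, chr15:89180789-89181038 (minus strand) for Plxnb2 and chr3:95160170-95160419 (plus strand) for Sema6c. Both peaks together covered 249 of the 250 bases at Plxnd1, 227 at Efnb2, 182 at Plxnb2, 147 at Sema6c, 130 at Epha2 and 92 at Ephb4.

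The printed promoters are rich in G and C. Over the 300-base windows the GC content was 72.3% at Efnb2, 70.3% at Plxnb2, 67.0% at Plxnd1, 64.7% at Ephb4, 62.7% at Sema6c and 54.7% at Epha2. The median was 67.0% with 23 CG dinucleotides for the 9 starts under a shared region, against 63.7% and 19 for the 47 other starts of these genes. Over all 32851 listed starts the medians were 62.0% and 23 under a shared region and 50.3% and 5 elsewhere. The RUNX core motif was searched as TGTGGT or TGCGGT on both strands, and a window with several matches, which may share bases, was counted once. None of the 9 windows under a shared region held it, against 22.8% of the 7492 windows under a shared region over all listed starts and 22.4% of all 32851 windows. Among the other 47 windows, 11 held it (23.4%), at Efna3, Efna4, Efna5, Epha8, Ephb1, Sema3a, Sema4a, Sema4b, Sema4d, Sema6d and Sema7a. A match is only a run of letters, and the regions themselves were mostly longer than these windows.

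The 10 regions at starts were narrow in replicate 1, where each peak was under the list's median width of 396 bp. In replicate 2, with the same median, 5 of the 10 exceeded it, at Efnb2, Ephb3, Ephb4, Plxnb2 and Sema5a. Where widths are given in pairs, replicate 1 precedes replicate 2. The Efnb2 region had widths of 278 bp in replicate 1 and 576 bp in replicate 2, and its edge lay 19 bp before the gene. That at Ephb4, the receptor of ephrin-B2, measured 356 and 500 bp and covered the start of Ephb4 and one of the lncRNA gene Gm52791. Those at the other EphB genes measured 251 and 443 bp at Ephb3 and 242 and 223 bp at Ephb6, whose region began 1381 bp inside the annotated span and covered the listed start. Efnb2 and Ephb4 thus each had a single shared region, at the start of the gene. The peaks of the replicates had 273 bp in common at Efnb2 and 200 bp at Ephb4. Neither gene kept its link under the reciprocal overlap or with only the wider peaks of each list, settings that are described below. Both kept it when each region went to the nearest gene end only, and Efnb2 lost it with the span alone. At Epha2, a receptor of A-class ephrins, the start region was 165 bp in replicate 1 and 260 bp in replicate 2.

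The other 5 regions lay at plexin and semaphorin starts. The region at Plxnd1, a receptor for Sema3e, was 321 bp in replicate 1 and 329 bp in replicate 2. The region over a listed start of Plxnb2, a receptor of class 4 semaphorins, measured 379 and 476 bp, and that before Plxna2, a receptor of class 3 and class 6 semaphorins, 171 and 230 bp. Sema6c, which encodes a transmembrane semaphorin, had a start region of 328 and 350 bp. At Sema5a, a semaphorin with thrombospondin repeats, the region measured 175 bp in replicate 1 and 657 bp in replicate 2, ended 86 bp before the start, and also covered a start of the lncRNA gene Snhg18. Averaged over both replicates, the 10 regions ranged from 200.5 to 428 bp in width with a median of 343 bp. None exceeded the median of all 18133 shared regions, which was 496 bp, whereas 60.0% of the 5404 shared regions within 1 kb of any listed protein-coding start did.

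Class 3 semaphorin genes, which encode the secreted members, had 13 shared regions over 6 of 7 genes. None lay within 1 kb of an end or a listed start of its own gene. The share of genes was 85.7% (48.7 to 97.4), against 54.8% of all protein-coding genes, a value that the interval held. Sema3a, which encodes the neuropilin ligand, had all 5 inside its span of 479 kb. In order along chromosome 5 they were 748, 701, 567, 354 and 578 bp wide in replicate 1 and 1121, 819, 626, 470 and 731 bp wide in replicate 2. Replicate 2 was the wider in each. The first, chr5:13229099-13230219, was wider than 93.7% of all shared regions, and the region nearest to the listed Sema3a start lay 31.0 kb from it. That start lies inside the annotated span. The low end of the span, on the start side of this plus-strand gene, was 104 kb from the nearest region. The end of the nearest other protein-coding gene was 239592 bp or more from each of the 5.

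The other class 3 genes had fewer regions or lay in denser surroundings. Sema3c had 2, of 257 and 283 bp in replicate 1 and 533 and 413 bp in replicate 2, 114 and 145 kb from its start. Sema3d had 1 of 231 and 293 bp and Sema3f 1 of 184 and 313 bp, wider than 8.1% and 6.1% of all shared regions. The 3 regions of Sema3b, a gene of 11.6 kb, all lay outside it, 9.58 kb below its low end and 3.28 and 9.65 kb above its high end. Their peaks measured 577 and 829 bp, 533 and 446 bp, and 558 and 1082 bp. The first covered an end of Hyal3 and a start of Ifrd2, and the others had the end of Gnai2 nearer than that of Sema3b. The single region of Sema3g, 6.76 kb beyond its end, covered an end of Phf7 and joined a replicate 1 peak of 428 bp with replicate 2 peaks of 182 and 236 bp. Sema3e had 1 peak, of 265 bp in replicate 2, and no shared region.

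Class 4 to 7 semaphorin genes encode membrane-bound proteins, and 9 of these 13 genes had a shared region. Of all 20 semaphorin genes, 15 had one (75.0%, 53.1 to 88.8), against 54.8% of all protein-coding genes. Sema4f had the widest region of the whole family, chr6:82908091-82909735, with peaks of 1551 bp in replicate 1 and 1602 bp in replicate 2 that overlapped over 1508 bp. It ranked 29 of 18133 shared regions by mean peak width, lay 2.15 kb beyond the end of Sema4f, and was 37.2 kb from the end of any other protein-coding gene. A further region of Sema4f, of 302 and 389 bp, lay 4.66 kb inside the gene from its start.

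Sema4b, Sema4c and Sema4g each had 1 region, of 626 and 915 bp, 431 and 393 bp, and 1033 and 885 bp in replicates 1 and 2. In the same order, these covered a start of Cib1, Ankrd39 and Mrpl43. The regions of Sema4b and Sema4g also overlapped Gdpgp1 and Twnk, respectively. Sema4d, the ligand of Plxnb1, had 2 regions. That of 438 and 229 bp, 8.26 kb beyond its end, lay inside Secisbp2, whose end was nearer, at 6.77 kb. The other, of 215 and 164 bp, lay inside Sema4d. Sema6d had 1 of 364 and 733 bp inside the gene, 15.6 kb from a listed start. Sema7a, whose product binds integrin beta 1, had 1 of 387 and 668 bp, 9.19 kb beyond its end. Sema4a had 1 peak in each list, of 331 and 244 bp, and these missed each other by 271 bp. Sema6a had peaks in replicate 1 alone, Sema6b in replicate 2 alone, and Sema5b in neither.

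Plexin genes had 7 shared regions over 4 of 7 genes (57.1%, 25.05 to 84.18), against 54.8% of all protein-coding genes. Plxna2 had 6 peaks in each list and 3 shared regions. Besides the one before its start, its regions measured 844 and 625 bp, 51.8 kb into the gene, and 391 and 495 bp, 162 kb into it. Over the Plxna2 start itself lay a replicate 1 peak of 246 bp, and 43 bp further into the gene a replicate 2 peak of 421 bp, which did not count as shared. Plxnb2 had a second region, of 291 and 248 bp, 4.25 kb from a listed start. Plxnc1, which encodes the Sema7a plexin, had 1 of 645 and 437 bp inside the gene. Plxna1 had 1 peak in replicate 1 and 2 in replicate 2 that did not overlap, Plxna4 had 1 peak in replicate 1, and Plxnb1 had none.

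Ephrin genes had 5 shared regions over 4 of 7 genes (57.1%, 25.05 to 84.18), against 54.8% of all protein-coding genes. Efna1 had 1 of 259 and 350 bp, 7.65 kb before its start, and Efna5 had 2, of 238 and 187 bp beyond its end and of 236 and 354 bp inside. The Efna2 region, of 308 and 558 bp, lay 5.97 kb before the gene and covered a start of Fam174c. Efna4 had a replicate 1 peak of 202 bp over its start, without a partner in replicate 2. Efna3 and Efnb3 had no peak in either list.

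EphA receptor genes had 9 shared regions over 4 of 9 genes (44.4%, 18.9 to 73.3), against 54.8% of all protein-coding genes. Epha2 and Epha4 had 3 each, Epha1 had 2, Epha6 had 1, and Epha3, Epha5, Epha7, Epha8 and Epha10 had none. At Epha2 the region beyond the end of the gene, at a distance of 586 bp, had widths of 628 bp in replicate 1 and 642 bp in replicate 2. The one in its body was 230 and 811 bp wide, with only 87 bp in common. Smaller overlaps joined the peaks of regions at Sema3c (36 bp), Sema4d (52 bp), Sema3d (61 bp), Sema3g (63 bp) and before Plxna2 (67 bp). Epha4, a receptor that takes ephrins of both classes, had 2 regions inside the gene, of 486 and 586 bp and of 544 and 581 bp, and 1 beyond its end whose peaks of 251 and 637 bp shared 12 bp. The Epha1 region of 970 and 1042 bp covered the start of Zyx, which encodes the focal adhesion protein zyxin, and the other, of 503 and 414 bp, lay 8.60 kb before the Epha1 span. The Epha6 region, of 737 and 566 bp, covered a start of Arl6.

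The genes without a region included some of the longest. Epha5, of 363 kb, Epha7, of 154 kb, and Epha3, of 321 kb, had no peak in either replicate, and their nearest shared regions lay 1650, 1640 and 272 kb from the gene. Epha8 and Epha10 had 1 peak each, of 208 and 233 bp, in replicate 1 alone. Ephb1, an EphB gene of 433 kb, also had no peak in either list. Ephb2, which encodes a receptor of B-class ephrins, had 3 regions inside its 189 kb, of 820, 218 and 517 bp in replicate 1 and 892, 456 and 250 bp in replicate 2. The first of these, chr4:136649573-136650494, lay 2.04 kb inside the low end of the span, which is the far end from its start.

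**Figure D2:**
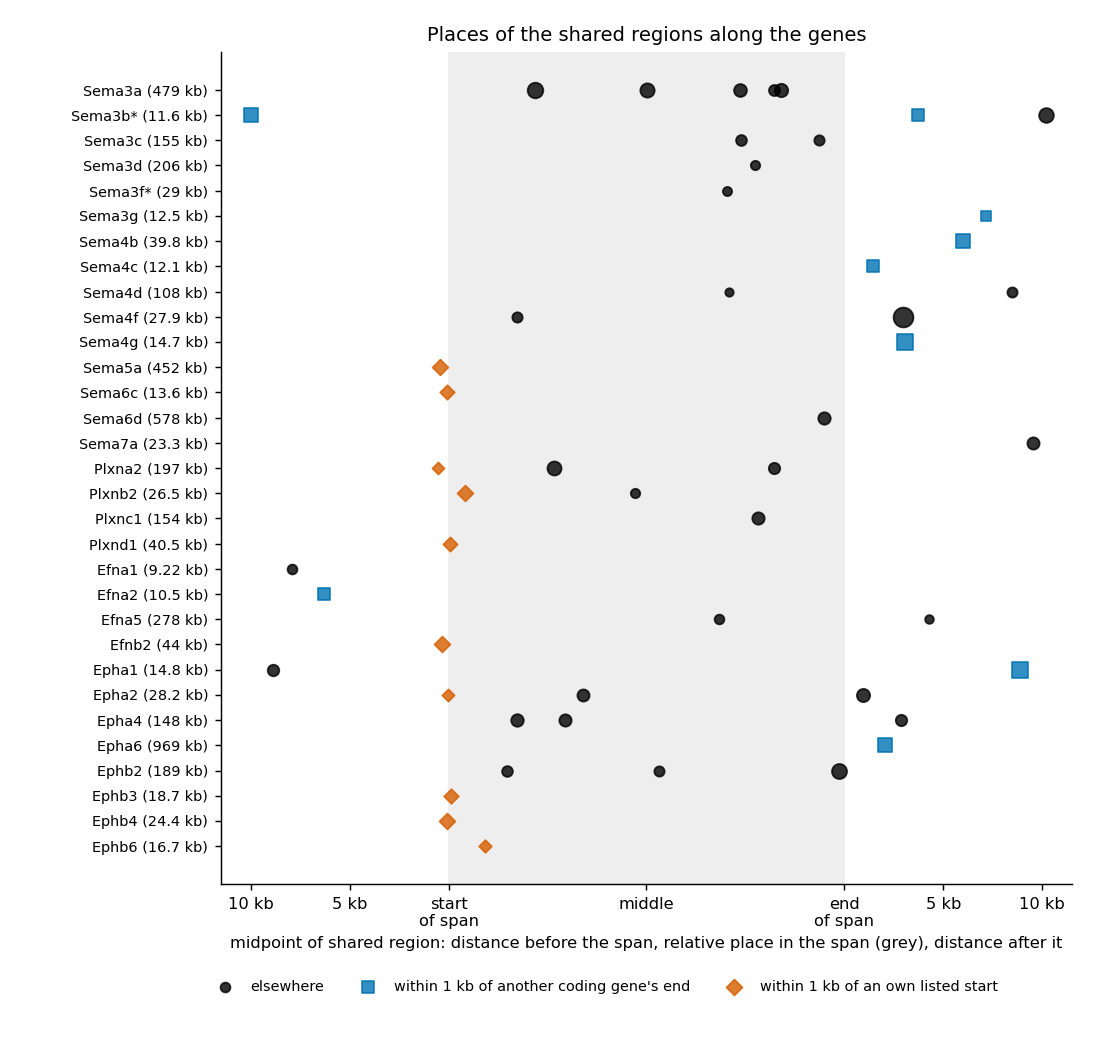
Place of the midpoint of each of the 51 shared regions along its gene, with the start on the left; distances outside the span are in kb, the grey band is the span scaled to 1 width, marker area grows with mean peak width, and genes with an asterisk have no listed strand and run from the low to the high end. Diamonds, the 10 regions within 1 kb of an own listed start, are small, and squares, within 1 kb of the end of another protein-coding gene, lie outside the spans; the Plxnb2 diamond is also within 1 kb of such an end.

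By place, 30 of the 51 regions overlapped the span of their gene and 21 lay outside it. Of the 30, 23 lay inside the span over 1 kb from both ends and from every listed start, with a median of the mean peak width of 443 bp. Outside the spans, 9 regions of 8 genes were within 1 kb of an end of another protein-coding gene, and their median was 651.5 bp. In 11 of the 51 the end of another protein-coding gene was nearer than that of the linked one. These counts by place were not made for all protein-coding genes, so they cannot be called particular to this family. When each region was given only to the gene with the nearest end, 24 of the 48 genes kept a link (50%), against 45.7% of all protein-coding genes. The 7 that lost it were Efna2, Epha6, Sema3b, Sema3g, Sema4b, Sema4c and Sema4g.

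Regions near an end of the gene were found at 9 of the 48 genes (18.8%, 10.2 to 31.9), against 34.6% of all protein-coding genes. The family is made of long genes, with a median span of 38.0 kb against 17.5 kb. Among genes under 20 kb, 10 of 14 had a shared region (71.4%) against 46.3% of all such protein-coding genes; from 20 to 100 kb it was 9 of 14 (64.3%) against 64.1%; and at 100 kb or more 12 of 20 (60.0%) against 66.1%. For regions within 1 kb of a gene end the counts were 2 of 14 (14.3%) against 31.9%, 5 of 14 (35.7%) against 41.2%, and 2 of 20 against 26.6%. The 95% Wilson intervals of all these 6 shares held the value of all protein-coding genes, and that of the 10 of 14 ran from 45.4 to 88.3%. Those 10 genes include Efna2, Sema3b, Sema3g, Sema4c and Sema4g, which lost their link when each region went to the nearest gene end only. Counted per length of DNA, the spans with 10 kb at either side held 6.64 shared regions per Mb at these genes (51 in 7.68 Mb), against 10.9 per Mb at all protein-coding genes. This density was not compared within classes of gene length.

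**Figure D3:**
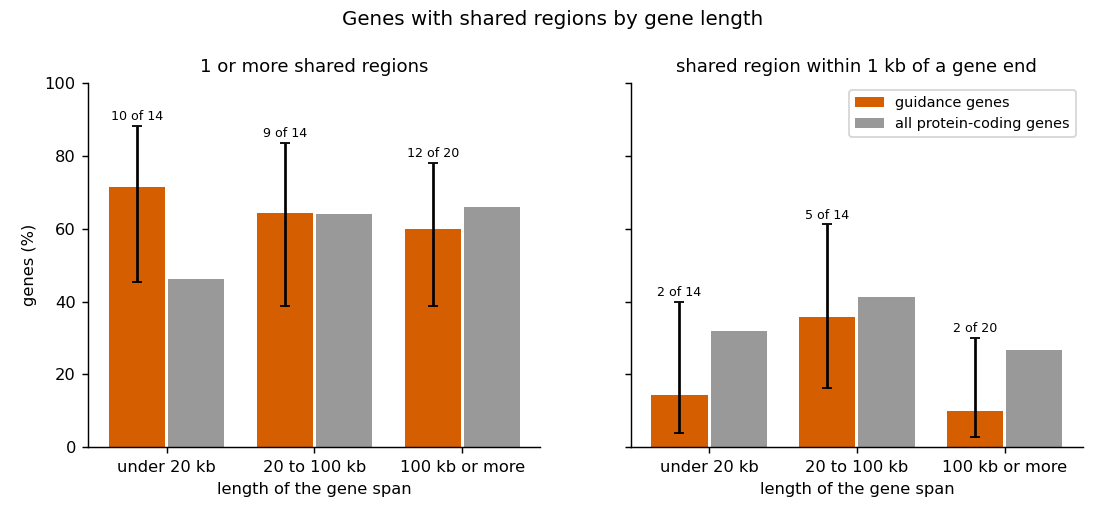
Percent of genes with a shared region (left) and with one within 1 kb of a gene end (right) by length of the gene span; orange bars are the 48 guidance genes with 95% Wilson intervals and their counts, grey bars all protein-coding genes. The guidance genes stand at 71.4, 64.3 and 60.0% on the left, against 46.3, 64.1 and 66.1%.

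The share of peaks found in both replicates was near that of all peaks with an overlap of 1 bp and below it with a stricter overlap, and the difference was not tested. Of 77 peaks in replicate 1, 51 were shared (66.2%, 55.1 to 75.8), against 68.4% of all replicate 1 peaks on chromosomes 1 to 19. In replicate 2 it was 52 of 76 (68.4%, 57.3 to 77.8), against 67.3%. With a reciprocal overlap of at least 50%, the shares were 39.0% in replicate 1 and 39.5% in replicate 2, against 51.1% and 50.3% of all peaks. In replicate 1, 38 genes had a peak (79.2%), against 62.7% of protein-coding genes, and in replicate 2, 35 genes (72.9%), against 62.8%. Of the 17 genes without a shared region, 8 had no peak at all, 5 had peaks in replicate 1 alone, 2 in replicate 2 alone, and 2 in both without overlap. Of the 50 peaks without a partner, 8 lay under 500 bp from a peak of the other replicate, at Plxna2, Sema3a, Sema4a and Sema4b. The linked genes nearest to the 10 kb limit were Sema7a, Epha1 and Efna1, with their closest shared region at 9.19, 8.38 and 7.65 kb, and the unlinked ones Sema4a, Efna4 and Plxnb1, with a shared region at 10.4, 10.8 and 11.1 kb.

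**Figure D4:**
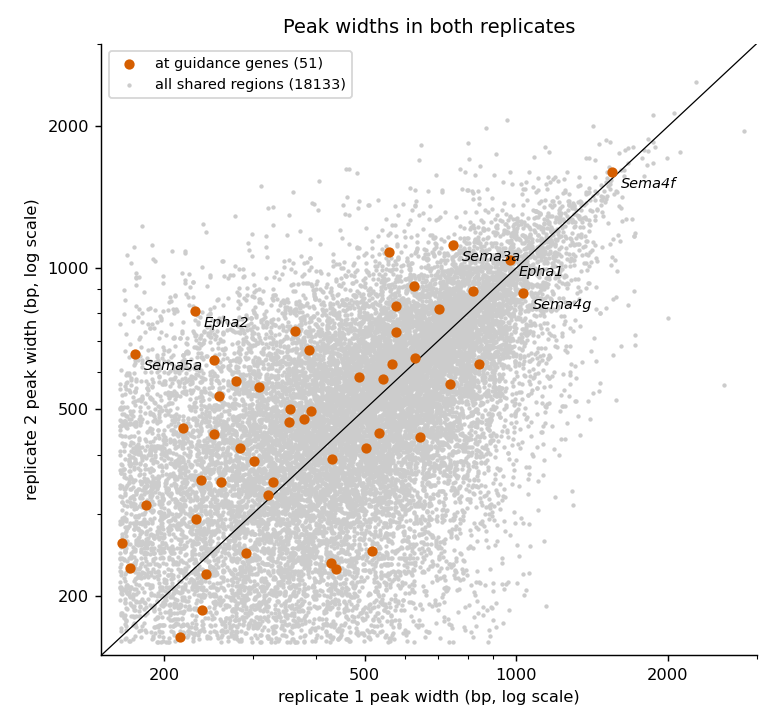
Width in bp, on log axes, of the replicate 1 peak (horizontal) and the replicate 2 peak (vertical) of each shared region; orange points are the 51 regions of the guidance genes, grey points all 18133, and the line marks equal width. Most orange points lie above the line and Sema4f is the widest.

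Replicate 2 peaks were the wider in 37 of the 51 regions (72.5%), against 50.7% of all shared regions, with the widest peak of each list taken where a region held several. Over regions of 1 peak from each list it was 37 of 50 (74.0%), against 50.8%. The median ratio of replicate 2 to replicate 1 width was 1.26 here, against 1.01 over all regions. The median of the mean peak width was 428 bp, against 496 bp over all shared regions, and 20 of the 51 regions (39.2%) exceeded 496 bp. With only peaks wider than the median of their own list, 12 of the 48 genes were linked (25%), against 37.9% of all protein-coding genes, which turns the order round. They were Sema3a with 4 regions, Sema3b with 3, Epha1 and Epha4 with 2, and Epha2, Epha6, Ephb2, Plxna2, Plxnc1, Sema4b, Sema4f and Sema4g with 1 each. With a reciprocal overlap of at least 50% it was 20 genes (41.7%) against 46.8%, and with regions in the span alone 19 (39.6%) against 42.8%. Under the definition used throughout, the share was 64.6% against 54.8%, and its interval of 50.4 to 76.6 held the latter value. That order was not kept under those 3 definitions.

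**Figure D5:**
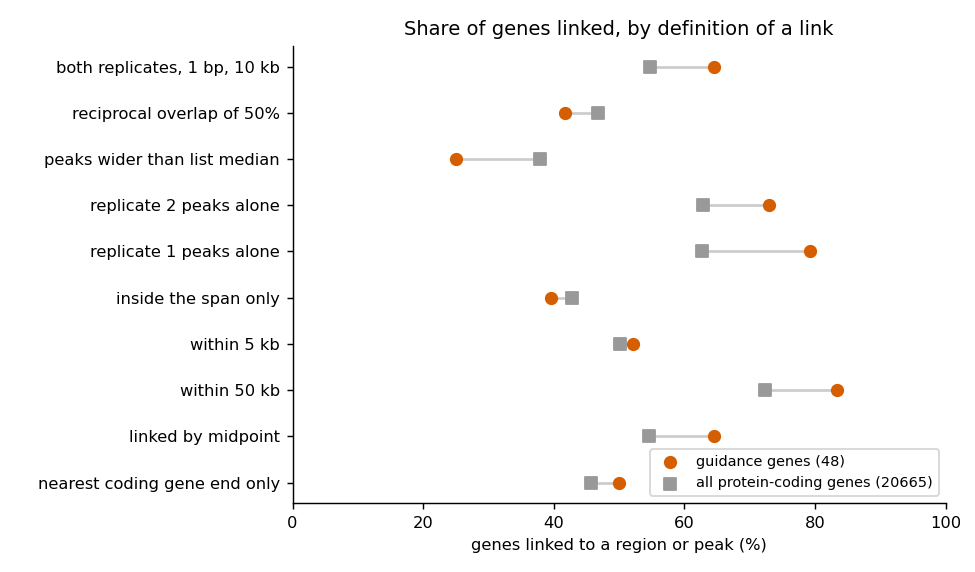
Percent of genes linked to a shared region or peak under each definition of a link; orange circles are the 48 guidance genes and grey squares all 20665 protein-coding genes. The circles lie right of the squares at 64.6 against 54.8% for the definition used throughout, and left of them for wider peaks, reciprocal overlap and the span alone.

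Genes that act with these ligands and receptors were counted from lists drawn up from textbook roles, with earlier results of these data known. Of 32 semaphorin coreceptors and effectors, 23 had a shared region (71.9%, 54.6 to 84.4), against 54.8% of all protein-coding genes, with a median length of 49.0 kb; of all protein-coding genes of 20 to 100 kb it was 64.1%. The coreceptor gene Nrp2 had 3, from 6 peaks in replicate 1 and 5 in replicate 2, while Nrp1 had 1 peak in replicate 1, 5 in replicate 2 and no shared region. Mical2 and Mical3, which encode actin-oxidising enzymes downstream of plexins, had 6 and 5, and the receptor tyrosine kinase gene Met had 3. Rhoa, which encodes a GTPase controlled by plexin B, had 3, and Itgb1, which encodes the Sema7a receptor subunit, had 1.

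Of 30 Eph and ephrin effectors, 22 had a shared region (73.3%, 55.6 to 85.8), against 54.8% of all protein-coding genes. Their median length was 120 kb, and of all protein-coding genes of 100 kb or more it was 66.1%. Kalrn, which encodes a guanine nucleotide exchange factor acting below EphB receptors, had 10, Pdzrn3 had 6, Ptpn1 and Anks1 had 5, and Abl1 had 4. Tiam1, an exchange factor gene of 358 kb, had no peak in either list. Of 27 other guidance genes, of the slit, netrin and related families, 14 had a region (51.9%), with a median length of 105 kb, against the same 66.1%; Slit3, Ntn1 and Unc5b had 3 each, and Robo1, Slit2 and Dcc had no peak in either list. These lists differ from the 48 genes in length, and no test of the difference was made. Each list also mixes short and long genes, so the share of a single length class does not match a whole list.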

How the data were processed

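CUT&Tag with an antibody against RUNX2 was analysed from 2 replicate libraries of untreated MC3T3-E1 cells. Per the submitters' processing notes, fastp 0.19.6, Bowtie2 and deepTools were used on GRCm38 (mm10), with no roles or settings given; which peak caller and threshold were used is not given in the sources used here. Per replicate, the authors deposited 1 peak list, without a header or score. The width column equals end minus start plus 1 in every line, so positions were read as counted from 1 with both ends included.

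Genes were spans from RefSeq (GRCm38.p6), and starts, strands and promoter sequences came from its promoter table. Regions were linked to genes by any overlap with the span plus 10 kb. The 48 genes and the pathway lists were chosen with earlier results of these data known, so no p-values are given; counts stand beside those of all protein-coding genes on chromosomes 1 to 19. All 48 genes were to be named, with positions for up to 25; here positions are given for fewer and widths for every linked gene. Linking was tested on simulated data, and overlap counts equalled those of bedtools 2.31.1. Other tools were Python 3.11.15, pandas 2.3.3 and scipy 1.17.1. Alternatives covered overlap, peak width, each replicate alone, distance and nearest-gene links.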

Additional observations from a re-analysis of the deposited data

How the results depend on the processing

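Under 9 alternatives the count of linked genes (31) was 20 with a reciprocal overlap of 50%, 12 with only the wider peaks of each list (above its median width) and 19 with the span alone. It was 25 within 5 kb (52.1%, against 50.1% of all protein-coding genes), 40 within 50 kb (83.3 against 72.3%), 31 by midpoint (64.6 against 54.6%) and 24 by nearest gene end (50 against 45.7%). With a single replicate's peaks it was 35 (replicate 2) to 38 (replicate 1). All 31 were among them each time, which follows from the definition, because a shared region needs a peak in each list. The count of shared regions (51) was 30, 19, 30 and 115 with reciprocal overlap, wider peaks, the span alone and 50 kb, and 76 to 77 peaks with a single replicate. Genes with a region within 1 kb of an end (9) numbered 4 with reciprocal overlap, 1 with wider peaks (Epha2) and 16 within 3 kb of an end. Those shares lay below all protein-coding genes throughout, at 8.33 against 27.9%, 2.08 against 21.9% and 33.3 against 39.9%. Shared peaks at these genes were 39.0% in replicate 1 and 39.5% in replicate 2 with reciprocal overlap, against 51.1 and 50.3% of all peaks, and 46.3% in replicate 2 with wider peaks, against 68.8%. Genes with a RUNX motif in a listed promoter window (11 of 42) numbered 6 with TGTGGT alone and 0 of the 9 with a region over the window. The causes were not tested. No paired analysis was possible because the series holds a single group. Without read counts, a gene without a peak may carry signal below the calling limit.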

Other observations

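Relatives on the X chromosome are outside the rule that chose the 48 genes. Efnb1, which encodes another B-class ephrin, had 1 peak in each replicate and 1 shared region, Plxna3 had 2 peaks in each and 2 shared regions, and Plxnb3 had no peak, with its nearest shared region 13985 bp away. Of the 966 protein-coding genes on X, 25.6% had a shared region.

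Some ends of the 48 genes had a peak on or near them in 1 replicate alone. A replicate 1 peak of 284 bp lay across the high end of Epha4, which is the end at its start, and one of 432 bp covered the start of Sema3c. A replicate 2 peak of 190 bp lay 773 bp before the start of Efna5, and one of 191 bp lay 412 bp from the high end of Plxna1. At Sema4b, a replicate 2 peak of 619 bp covered a listed start, and the nearest replicate 1 peak missed it by 206 bp.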
